A study of Mus musculus with 8 samples.

Results

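Peaks of H3R17me2a, histone H3 dimethylated asymmetrically at arginine 17, were examined inside the longest protein-coding genes of the mouse genome. A peak was taken when its summit lay inside a protein-coding gene span of 500 kb or longer and over 1 kb from both gene ends, with spans taken from the RefSeq annotation of GRCm38.p6 (mm10). The 227 genes of that length had a median span of 734 kb, and the longest was Dmd with 2390 kb. Their trimmed spans covered 190 Mb, which was 7.15% of the sequence between the outermost peaks of the chromosomes. They held 2383 of the 36243 peaks on chromosomes 1 to 19, X and Y, or 6.58%. Control 1 contributed 849 of these peaks, control 2 contributed 577, knockout 1 contributed 314 and knockout 2 contributed 643. The annotation gave gene spans without exons, so introns, exons and UTRs were not assigned.

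All hearts came from mice of the genotype Carm1fl/fl, in which both alleles of Carm1 can be deleted by Cre recombinase. An adeno-associated virus (AAV9) was injected on postnatal day 1 and carried Cre in the knockout group or green fluorescent protein in the control group, which the sample titles call WT. The hearts were mosaic, with infected and uninfected cardiomyocytes together, so the sorted nuclei of a knockout heart can include cells that kept Carm1. The age at harvest is not given in the sources used here. Each group had 2 ChIP libraries with a peak list each and 2 input libraries, which have no peak list of their own. Nothing in the labels says that the libraries of a group came from separate animals, so a p-value here speaks only of the spread among 4 libraries, which may be technical. Where 4 values follow one another without names, they belong to control 1, control 2, knockout 1 and knockout 2, in that order.

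Carm1 is an arginine methyltransferase that is recruited to promoters and enhancers as a transcriptional coactivator, and the methylation of H3 at this arginine is one of its marks. Very long genes consist mostly of introns, take many hours to transcribe, and can hold enhancers and internal promoters. Many encode adhesion molecules, receptors and scaffolds of the synapse, and several are common fragile sites, where chromosomes break under replication stress. A few are central to the cardiomyocyte, among them Dmd, which encodes dystrophin, the link between the cytoskeleton and the membrane complex of muscle.

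The lists were called in each library separately and held 12990 and 8742 peaks in controls 1 and 2, and 4980 and 9531 in knockouts 1 and 2. Read totals are not known from the lists, so the number of peaks in any stretch of sequence also follows the length of the list. Peak calls measure neither transcription nor the deletion of Carm1. Of 10 cardiomyocyte marker genes, 2 held a peak in control 1, 2 in control 2, and 0 in either knockout list. Of 4 macrophage markers 1, 1, 0 and 0 held a peak, of 5 endothelial markers 2, 1, 0 and 1, and of 4 neuronal markers 0, 2, 0 and 1, while none of 5 fibroblast markers did in any list. Of all protein-coding genes, 9.71%, 8.04%, 5.17% and 8.2% held a peak.

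Internal promoters were the only stretches inside the long genes for which sequence was at hand. RefSeq windows of 300 bases (250 before and 50 after a transcription start, GRCm38.p6) numbered 446 inside the long genes, and 1 of them was met by a peak. It belongs to an internal start of Magi2, a scaffold protein of synapses and cell junctions, and is shown because it was the only such contact. The window lies at chr5:19907268-19907567 on the plus strand, and the capitals mark bases 181 to 300, which the peak covered.
Magi2 internal promoter: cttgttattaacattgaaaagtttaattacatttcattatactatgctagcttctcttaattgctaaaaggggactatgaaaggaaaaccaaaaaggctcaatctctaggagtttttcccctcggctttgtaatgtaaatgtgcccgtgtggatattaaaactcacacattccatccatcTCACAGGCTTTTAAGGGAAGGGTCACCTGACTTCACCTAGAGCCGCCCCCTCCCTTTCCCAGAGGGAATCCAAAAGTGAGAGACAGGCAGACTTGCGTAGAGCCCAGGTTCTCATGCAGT
The peak at chr5:19907448-19907696 was called in control 1 only, with 9 fragments at its summit and a fold enrichment of 6.76 over the local background. The window had a GC content of 43% and 4 CpG dinucleotides, against medians of 47% and 4 over the 446 windows.

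Peaks of the long genes rarely lay near any annotated start. Summits within 1 kb of the middle of a promoter window numbered 2 of 849, 1 of 577, 1 of 314 and 1 of 643 in the 4 lists, or 0.236%, 0.173%, 0.318% and 0.156%. In shorter protein-coding genes the share ran from 0.823% to 1.61% over the 4 lists, and outside protein-coding genes from 0.873% to 1.03%. The rule leaves out the ends of the long genes, and with them the main promoter of each, so the shares cover internal starts only. Starts were also sparse there: 446 of all 32851 windows lay inside the long genes, which covered 7.15% of the sequence. The lower shares were not adjusted for this and do not show that peaks avoided starts. Others lay near the noncoding RNA genes Gm41923 inside Cntnap5b, Nell1os inside Nell1 and Gm40691 inside Pcdh15, which are named because they are so few. The peak near Nell1os, in control 2, was the strongest of these with 16 fragments and a fold of 10.8. None of the 27 microRNA hairpins annotated inside the long genes was met by a peak.

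The density of peaks inside long genes was compared between the groups, which asks whether the mark was called there less often after Cre. Control 1 had 4.46 peaks per Mb (exact Poisson 95% interval 4.17 to 4.78), control 2 had 3.03 (2.79 to 3.29), knockout 1 had 1.65 (1.47 to 1.84) and knockout 2 had 3.38 (3.13 to 3.65). Control 1 was highest and knockout 1 lowest, and the groups overlapped, since knockout 2 lay above control 2. The controls averaged 3.75 ± 1.01 and the knockouts 2.52 ± 1.22 peaks per Mb (SD, n = 2 each). The log2 difference was −0.64 (exact two-sided permutation test, p = 0.667, where 2 libraries against 2 cannot go below 0.33). With every list kept to the length of the shortest, the log2 difference was −0.01, and without knockout 1 it was −0.12. The share of the list inside long genes was 6.54%, 6.60%, 6.31% and 6.75%, which averaged 6.57% ± 0.05 in the controls and 6.53% ± 0.31 in the knockouts. Intervals of counts here and below cover counting error only.

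Long genes held more peaks per Mb than shorter protein-coding genes in every list. The shorter genes, over 802 Mb of trimmed span outside the long genes, had 3.48, 2.47, 1.43 and 2.67 peaks per Mb. The ratio of long to shorter genes was 1.28 (95% interval 1.19 to 1.38) in control 1 and 1.23 (1.12 to 1.35) in control 2, and 1.15 (1.01 to 1.31) in knockout 1 and 1.27 (1.16 to 1.38) in knockout 2. Knockout 1 had the lowest ratio, and each interval lay above 1. The mean log2 ratio was 0.30 ± 0.07 (SD, n = 4 libraries), above 0 in 4 of 4 (exact two-sided sign-flip permutation test, p = 0.13, the smallest that 4 libraries allow). Between knockouts and controls the log2 ratio differed by −0.05 (exact permutation test, p = 0.667). The ratio was smaller without weak peaks: with only peaks of −log10 q of at least 5 its mean log2 was 0.19 and the sign-flip p rose to 0.25, and without peaks of at most 8 fragments the mean log2 was 0.15.

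**Figure D1:**
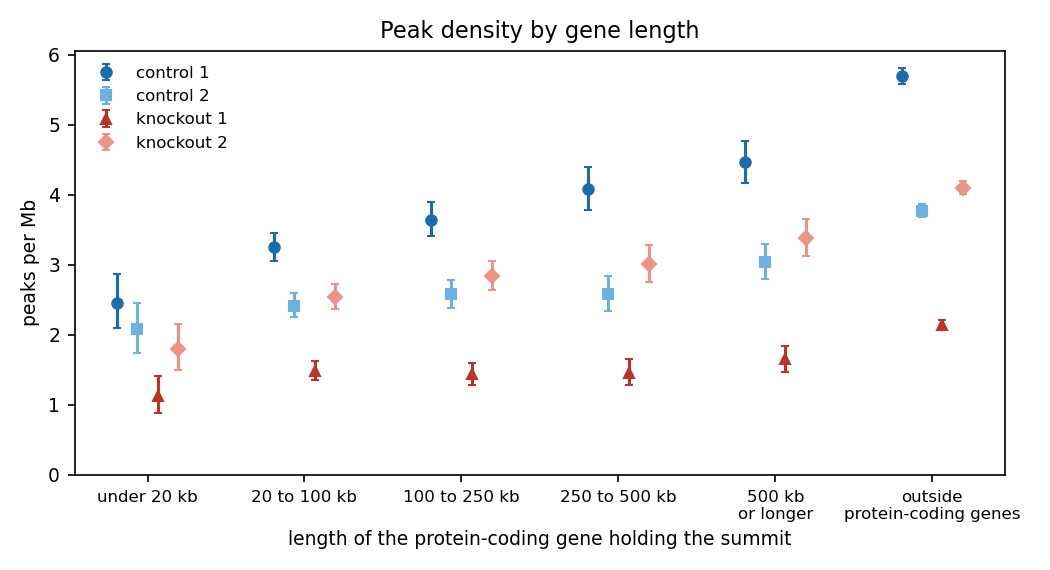
Peaks per Mb (y axis, starting at 0) by the length class of the protein-coding gene that holds the summit and outside protein-coding genes (x axis), for each of the 4 ChIP libraries; bars are exact Poisson 95% intervals. Within each library the class of 500 kb or longer lies above the shorter classes and below sequence outside genes.

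The comparison with sequence outside genes went the other way. Outside protein-coding genes the lists had 5.69, 3.77, 2.14 and 4.10 peaks per Mb, so that long genes reached 0.784, 0.805, 0.772 and 0.824 of that density in control 1, control 2, knockout 1 and knockout 2. The mean log2 ratio was −0.33 ± 0.04 (n = 4), below 0 in 4 of 4 libraries (exact sign-flip permutation test, p = 0.13). In the plot of density by gene length the long genes stand between every shorter class and sequence outside genes in each library. Among the shorter classes the density did not rise at each step in every library: knockout 1 had 1.48, 1.44 and 1.46 peaks per Mb in genes of 20 to 100, 100 to 250 and 250 to 500 kb. Divided by the density of the whole list, the mean over libraries was 0.561 ± 0.067 in genes under 20 kb, 0.725 ± 0.052 from 20 to 100 kb, 0.773 ± 0.021 from 100 to 250 kb and 0.810 ± 0.033 from 250 to 500 kb. In the long genes it was 0.915 ± 0.026, and outside genes it was 1.15 ± 0.01.

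The density was higher just inside the length threshold than just outside it in every list. The 54 genes of 450 to 500 kb, just outside it, had 3.51, 2.09, 1.34 and 2.36 peaks per Mb in control 1, control 2, knockout 1 and knockout 2. The 35 genes of 500 to 550 kb, just inside, had 4.16, 2.30, 1.48 and 3.01. All genes of 250 to 500 kb had 4.09, 2.58, 1.46 and 3.02, above the 450 to 500 kb class in every list, so density did not rise steadily with length. In control 2 they were also above the 500 to 550 kb class, and in knockout 2 nearly equal to it. The classes just outside and just inside held 89, 53, 34 and 60 peaks and 76, 42, 27 and 55 peaks. Intervals were not computed for these small classes, and no step at the threshold is read from them. Among the long genes themselves length made no steady difference: the 59 genes of 1 Mb or longer had 4.64, 2.90, 1.55 and 3.55 peaks per Mb, and the 168 genes of 500 kb to 1 Mb had 4.34, 3.13, 1.72 and 3.27. The longer class was higher in control 1 and knockout 2 and lower in control 2 and knockout 1. The 11 long genes on X had 4.79, 2.78, 1.91 and 4.31 peaks per Mb, against 4.45, 3.05, 1.64 and 3.33 on the autosomes.

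Relocation asked how many peaks the long genes would hold if each peak could lie anywhere on its chromosome. The number expected was computed exactly from the share of each chromosome inside the trimmed spans, and was 964, 649, 370 and 703. The observed numbers were 0.880, 0.889, 0.848 and 0.915 of these. The mean log2 ratio was −0.18 ± 0.05 (n = 4), below 0 in 4 of 4 libraries (exact two-sided sign-flip permutation test, p = 0.13), and knockouts and controls differed by −0.01 (exact permutation test, p = 1). When each peak was moved by at most 50 kb, the ratios were 0.986, 0.991, 0.991 and 0.990, a mean log2 of −0.02. A summit over 50 kb from both ends of its long gene cannot leave the gene by such a move. These ratios were therefore near 1 by construction, and they do not show whether long genes gain or lose peaks at that scale.

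The flanks of the long genes were compared with the genes, a comparison chosen after seeing the data. They were taken on each side for a distance of 50% of the gene length, outside protein-coding genes, and covered 137 Mb. They had 6.28, 3.99, 2.36 and 4.45 peaks per Mb in control 1, control 2, knockout 1 and knockout 2. The long genes reached 0.711, 0.761, 0.701 and 0.760 of their own flanks, with a mean log2 of −0.45 ± 0.06 (exact sign-flip permutation test, p = 0.13, below 0 in 4 of 4).

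The peaks inside long genes were mostly small, as were peaks elsewhere. Their median fold was 5.72, 5.44, 5.55 and 5.83, with 7, 7, 8 and 7 fragments at the summit. The median fold was 5.69, 5.44, 5.60 and 5.62 in shorter genes, and 5.69, 5.44, 5.48 and 5.65 outside genes. These folds are the authors' values, relative to each library's own background, and are not compared between lists. Peaks of 10 fragments or fewer made up 89.2%, 89.8%, 80.6% and 89.3% of the members. In shorter genes they made up 85.4%, 84.0%, 73.4% and 87.3%, and outside genes 88.6%, 87.9%, 77.7% and 88.9%. The highest fold inside a long gene was 31.5, and 0 members reached 100-fold. In shorter genes the highest fold was 4922, 5598, 4285 and 2677, and outside genes 1287, 1321, 961 and 702. These maxima are single peaks, and the median folds above differed little. Each list had 3 members over a local background of 5 fragments or more.

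Along the gene the summits were spread nearly evenly. In the 179 long genes whose strand is known, 5 segments of equal length held between 17.0% and 22.7% of the summits of a list each. The segment at the 3′ end held 19.8%, 18.8%, 17.0% and 17.1% in control 1, control 2, knockout 1 and knockout 2, and the one at the 5′ end held 20.1%, 18.3%, 22.3% and 19.6%. Their 95% binomial intervals (Clopper-Pearson) overlapped in every list.

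Nearly every long gene held a peak somewhere. At least 1 peak lay in 225 of 227 genes, where 17.3% of all 21776 protein-coding genes tested held one, and a longer span has more room for one. Per list the number was 210 and 197 in the controls and 161 and 196 in the knockouts, against 9.71%, 8.04%, 5.17% and 8.2% of all genes. A peak in each of the 4 lists was found in 137 long genes (all genes, 1.91%). The total over the 4 lists had a median of 9 peaks per gene and rose with the span, with Pearson's r 0.70 and Spearman's rho 0.60 across the 227 genes, which share the same 4 libraries.

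**Figure D2:**
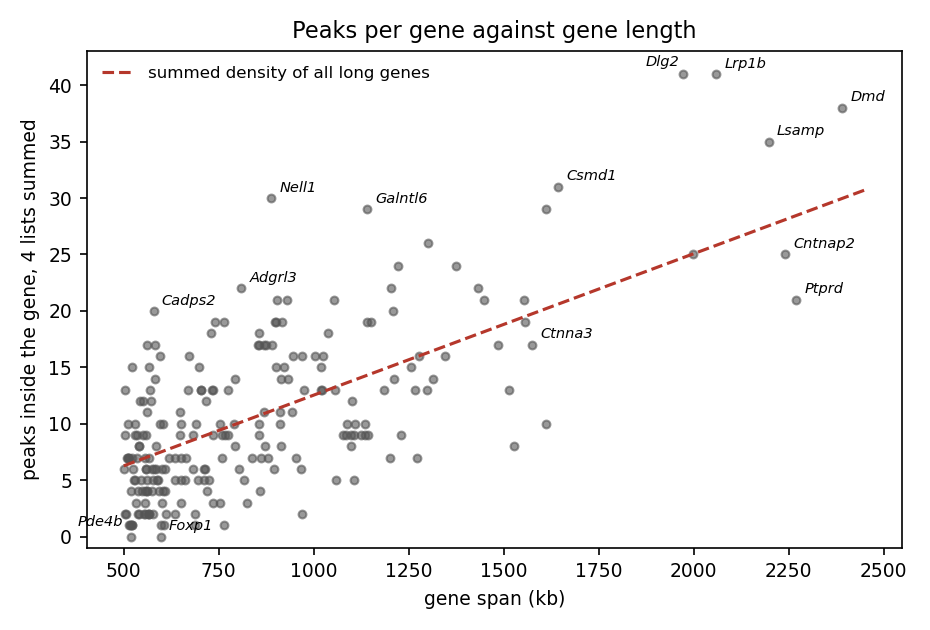
Peaks inside each of the 227 long genes, summed over the 4 lists (y axis), against gene span in kb (x axis); each point is a gene and the dashed line is the summed density of all long genes. Nell1 lies far above the line with 30 peaks, and Foxp1 and Pde4b lie at 0.

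The highest totals were in a receptor gene and a synaptic scaffold gene. A position called in several libraries counts once for each library in these totals. Genes named by total or density are the extremes of the 227, and their distance from the expected number was not tested. Lrp1b, an endocytic receptor of the LDL receptor family, held 11, 10, 6 and 14 peaks, and its total of 41 compares with 25.8 expected from its length at the density of all long genes. Dlg2, a scaffold of the postsynaptic density, held 16, 10, 7 and 8, also 41 in total, with 24.7 expected. Lrp1b was highest in knockout 2 and Dlg2 in control 1, so the order of the libraries differed between these genes. Lsamp, an immunoglobulin adhesion molecule of neurons, held 15, 6, 3 and 11 peaks (27.5 expected for a total of 35), and Csmd1, a regulator of complement, held 13, 5, 4 and 9 (20.6 for 31).

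Other genes with large totals encode enzymes. Fhit, a hydrolase of dinucleotide polyphosphates at a classic fragile site, held 10, 9, 3 and 7 peaks, a total of 29 against 20.2 expected. Galntl6, a member of the glycosyltransferase family that starts O-linked glycans, held 12, 6, 4 and 7, a total of 29 against 14.3. Pde4d, a cyclic AMP phosphodiesterase with roles in cardiomyocyte calcium handling, held 8, 7, 1 and 10 (16.3 expected for 26). In Pde4d knockout 1 stood apart from the other 3 lists. Macrod2, which removes ADP-ribose from proteins, held 8, 6, 3 and 8, and its total of 25 equalled the 25.0 expected.

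Density relative to length set a different order. To remove list length, peaks per Mb in a gene were divided by the same library's density in all long genes and averaged over the 4 libraries. Nell1, a secreted protein of bone formation, was highest at 3.06 ± 1.32 (SD, n = 4), with 7, 9, 7 and 7 peaks. Its total of 30 compares with 11.1 expected, and its count in knockout 1 was as high as in control 1 although the list of knockout 1 was the shortest. The 30 peaks include repeated calls of the same positions, with 2 regions called in all 4 libraries and 2 in 3. Cadps2, a regulator of secretory vesicle release, followed at 2.74 ± 0.62 with 6, 6, 2 and 6 peaks. Fgf12, an intracellular growth factor homologue that binds voltage-gated sodium channels, reached 2.50 ± 1.25 with 3, 5, 4 and 4. Csmd2, a relative of Csmd1, reached 2.48 ± 0.51 with 5, 4, 3 and 5.

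The remaining genes of highest relative density ranged from 2.09 to 2.36. They were Adgrl3, an adhesion receptor of the latrophilin family, Pkhd1, the gene of fibrocystin in primary cilia, and Sox6, a transcription factor of muscle and cartilage. Psd3, an exchange factor for Arf GTPases, Tenm4, a teneurin adhesion protein, and Fam155a, an accessory protein of the sodium leak channel, completed them. Their spread was wide: Sox6 had 2, 2, 4 and 5 peaks and a relative density of 2.20 ± 1.58, and Adgrl3 had 7, 2, 5 and 8 and 2.36 ± 1.27. The 2 genes without a peak in any list were Foxp1, a forkhead transcription factor with a role in heart development, and Pde4b, another cyclic AMP phosphodiesterase. At the density of all long genes 7.46 and 6.49 peaks would fall in them. Ptprg and Ptprk, receptor tyrosine phosphatases, and Lpp, a LIM-domain protein of focal adhesions, held 1 peak each, in control 1.

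**Figure D3:**
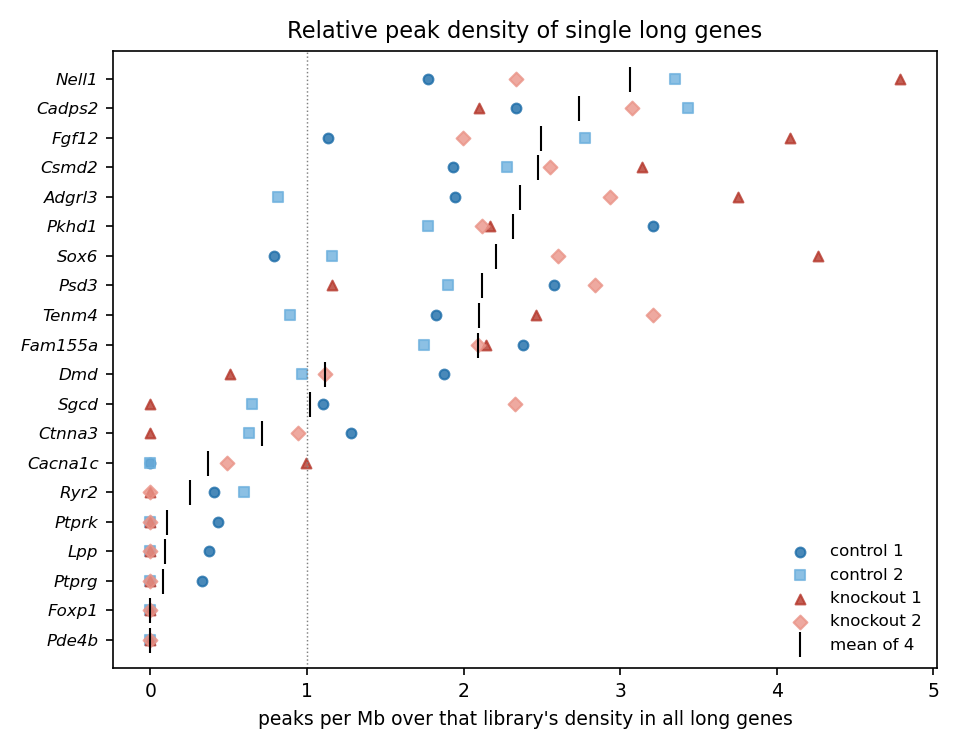
Peaks per Mb in a gene divided by the density of all long genes in the same library (x axis, 1 marks equality) for the genes of highest and lowest relative density and 5 cardiomyocyte genes (y axis); symbols are the 4 libraries and the black tick is their mean. Nell1 is at the top with a mean of 3.06 and its knockout 1 value farthest to the right, and the genes with 0 to 1 peaks are at the bottom.

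Genes of the cardiomyocyte did not stand together. Dmd held 20, 7, 2 and 9 peaks, a total of 38 with 29.9 expected and a relative density of 1.12 ± 0.57. Control 1 alone gave more than any other library, and the knockout counts lay on both sides of control 2. Sgcd, the delta-sarcoglycan of the dystrophin complex, held 5, 2, 0 and 8 peaks (1.02 ± 0.98), and Ctnna3, an alpha-catenin of the intercalated disc, held 9, 3, 0 and 5 (0.71 ± 0.55). Both had no peak in knockout 1 and several in knockout 2, and in Sgcd knockout 2 had the highest count of the 4 lists. The calcium channels of excitation and contraction had few: Ryr2, the release channel of the sarcoplasmic reticulum, held 1, 1, 0 and 0, and Cacna1c, the pore of the L-type channel, held 0, 0, 1 and 1. Their relative densities were 0.25 ± 0.30 and 0.37 ± 0.48. Among the 5 longest genes Ptprd, a receptor tyrosine phosphatase, held 6, 7, 1 and 7 peaks (0.70 ± 0.34), and Cntnap2, a neurexin-like protein of axons, held 11, 4, 3 and 7 (0.86 ± 0.21).

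Grouped by the role of the protein, the long genes were described by counts, with no test between the lists. Of 46 long genes for adhesion and synaptic scaffolds, 44, 42, 35 and 39 held a peak in control 1, control 2, knockout 1 and knockout 2, and 30 (65.2%) had a region called in at least 2 libraries, where the figure for all 227 was 153 (67.4%; all protein-coding genes, 4.42%). On the list of ion channels and transmitter receptors 17 of 24 long genes (70.8%) had such a region. On that of kinases, phosphodiesterases and other signalling enzymes 12 of 15 (80.0%) did. Of 9 long genes for the cytoskeleton, the dystrophin complex and junctions of muscle 6 (66.7%) did. The lists were broader than their names. That of channels and receptors also held Astn2 and partners of channels or pumps, such as Fgf12, Fgf13 and Nkain3. That of enzymes held Nrg1, Nrg3 and Diaph2, and that of adhesion and scaffolds held Lrp1b and Csmd1. The median relative densities of these lists were 0.92, 1.05, 1.15 and 0.98, with 0.92 over all long genes.

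The long genes for transcription, chromatin and RNA binding had the lowest median relative density of the lists, 0.67 over 19 genes. Of these 9 (47.4%) had a region in at least 2 libraries and 2 had one in all 4. The list includes Foxp1 with no peak and Sox6 with a relative density of 2.20. The 20 common fragile sites had a median of 1.03, and 17 (85.0%) had a region in at least 2 libraries. Their median span of 1361 kb exceeded that of all long genes, 734 kb, and a longer gene has more room for a shared region.

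Overlapping peaks of the 4 lists were merged to find positions called repeatedly. The members formed 1860 regions, of which 1533 were called in 1 library, 197 in 2, 83 in 3 and 47 in all 4. Those in all 4 made up 2.53% (95% binomial interval 1.86 to 3.35) against 2.09% of all regions of the genome, 1.56% in shorter genes and 2.21% outside genes. Regions in at least 2 libraries numbered 327, or 17.6%, against 16.4% of all regions, 14.7% in shorter genes and 16.9% outside genes. Both shares were thus close to the background of all regions.

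Recurrence was also read per peak, as the share that meets a peak of another library. Inside long genes it was 30.7%, 31.5%, 53.2% and 37.3%, and in shorter genes 26.7%, 29.8%, 42.1% and 29.0%. It was higher in the shortest list, knockout 1, in both classes of gene. An overlap counts in each library that takes part in it, so the 4 shares are linked. The permutation tests that follow treat them as independent. The difference between long and shorter genes averaged 6.27 ± 4.21 percentage points (n = 4), above 0 in 4 of 4 libraries (exact sign-flip permutation test, p = 0.13). It was 3.08 points with lists of equal length (exact permutation p = 0.13), 3.17 at −log10 q of at least 5 (p = 0.38), 3.64 in genes of 250 kb or longer (p = 0.25), 2.33 in genes of 1 Mb or longer (p = 0.38) and 2.63 without peaks of at most 8 fragments (p = 0.5). With all peaks the difference was 6.83 points larger in the knockouts than in the controls (exact permutation test, p = 0.33, the smallest possible). Against sequence outside genes, with 29.3%, 32.9%, 48.2% and 35.5%, the mean difference was 1.73 ± 2.62 points, above 0 in 3 of 4 (exact sign-flip permutation test, p = 0.25). Between knockouts and controls the share inside long genes itself differed by 14.1 points (exact permutation test, p = 0.33), and by 2.97 points with lists of equal length.

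Peaks with more fragments recurred more often. In control 1 the share inside long genes was 15.5% at 6 fragments or fewer, 33.4% at 7 or 8, 51.7% at 9 to 11 and 45.5% at 12 or more. In shorter genes the same classes gave 10.7%, 27.5%, 37.9% and 60.7%. The long genes were above the shorter genes in the lower 3 classes in all 4 libraries. At 12 fragments or more they were below in both controls (control 2, 62.8% and 67.9%) and above in both knockouts (78.4% and 61.2% in knockout 1, 70.7% and 57.5% in knockout 2), where the long genes had only 37 to 66 peaks a list.

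**Figure D4:**
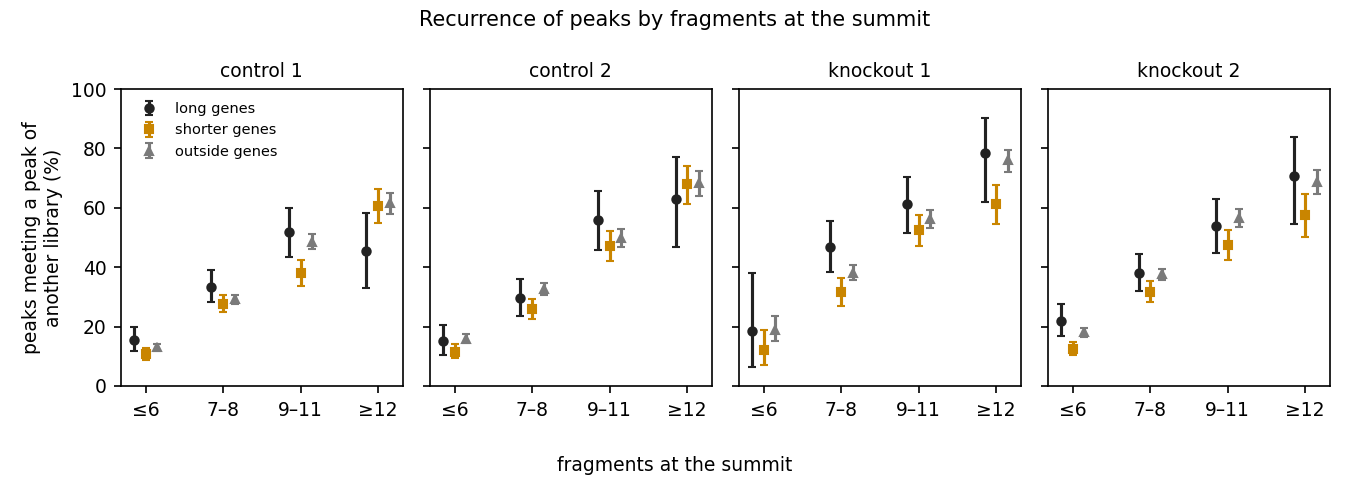
Share of peaks (%) that meet a peak of another library (y axis) by the number of fragments at the summit (x axis), one panel for each library, for long genes, shorter genes and sequence outside genes; bars are exact binomial 95% intervals. The share rises with fragments in every panel except for long genes at 12 or more fragments in control 1, where it is 45.5%.

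The 47 regions called in all 4 libraries lay in 38 long genes, where 0.638% of all protein-coding genes held such a region, and 8 of the genes held more than 1. Their merged width had a median of 913 bp, and the 4 peaks of a region started within a median of 322 bp and ended within 311 bp of each other. The summits held 5 to 99 fragments, with a median of 10. Only 3 of the 47 overlapped another annotated gene.

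A few of these regions held many fragments, though not all of them had a high fold. In Cntnap5c, a neurexin-like adhesion protein, the region at chr17:57855960-57856295 had 95, 90, 99 and 77 fragments in control 1, control 2, knockout 1 and knockout 2, over local backgrounds of 13.2, 13.4, 21.7 and 11.2 fragments. Its 4 peaks began within 4 bp of each other, and its folds were 6.77, 6.32, 4.40 and 6.37. The median folds of all members were 5.72, 5.44, 5.55 and 5.83, so its fold was ordinary and in knockout 1 below the median. In Dlgap2, a postsynaptic scaffold, chr8:14306801-14307317 also stood on a high background, with 36, 42, 45 and 39 fragments over 8.60, 7.95, 14.1 and 8.63. Leaving out peaks over a background of 5 or more, an alternative chosen after seeing the data, removes both regions.

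Malrd1, which encodes a protein that affects bile acid synthesis, held the highest fold of any long gene on a low background. The region at chr2:16023216-16023494 had 43, 39, 18 and 17 fragments in control 1, control 2, knockout 1 and knockout 2, over backgrounds of 0.395, 0.470, 0.608 and 0.447, with folds of 31.5, 27.2, 11.8 and 12.4. Its peaks began within 11 bp of each other, and it overlapped the long noncoding RNA gene Gm37416. A further Malrd1 region at chr2:16028726-16028955 was called in both controls and knockout 2 with 31, 28 and 13 fragments. Whether the fragment numbers differ with Cre was not tested, since read totals are unknown.

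Tenm4 and Sox6 each held 2 regions in all 4 libraries. In Tenm4 the region at chr7:96197317-96198405, 26.1 kb from the start of this plus-strand gene, had 10, 10, 11 and 13 fragments in control 1, control 2, knockout 1 and knockout 2, and that at chr7:96821193-96821987 had 17, 13, 12 and 20. In Sox6 the region at chr7:115588968-115589841 had 9, 14, 12 and 10 fragments and that at chr7:115817598-115818909 had 12, 13, 10 and 7. At each gene the groups overlapped in 1 region and not in the other: both knockouts were above both controls at the Tenm4 region nearer the start, and both controls above both knockouts at the second Sox6 region. Read totals are unknown, and 2 libraries against 2 give no test of a single region. No difference between the groups is therefore read from these counts. Nell1, the gene of highest relative density, held 2 such regions, at chr7:50147947-50149234 with 8, 9, 12 and 8 fragments and at chr7:50529527-50530480 with 8, 7, 9 and 10, and 2 further regions called in 3 libraries. Galntl6 held 3 in all 4 libraries, the highest number of any long gene, of which chr8:58095485-58096602 had 11, 10, 12 and 11 fragments.

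Others encode channels, receptors and ligands. Gabrg3, a GABA receptor subunit, had 10, 8, 11 and 13 fragments in control 1, control 2, knockout 1 and knockout 2 at chr7:57372870-57374443. Grid1, a delta glutamate receptor, had 10, 9, 11 and 10 at chr14:35432547-35433743. Nrg3, a neuregulin ligand of ErbB receptors, had 10, 11, 9 and 8 at chr14:38542224-38543185. Fgf13, which like Fgf12 binds sodium channels, had 9, 9, 10 and 8 at chrX:59283998-59284789. These were ordinary peaks in size, near the median of 10 fragments for regions of this class, and they differed by a few fragments between libraries. Both knockouts were above both controls in Gabrg3 and below them in Nrg3, and the groups met or overlapped in Grid1 and Fgf13. With read totals unknown, differences between the groups at these regions were not tested.

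The rest of the 20 genes named for a region in all 4 libraries had varied roles. Sntg1, a syntrophin that binds the dystrophin complex, had 9, 9, 10 and 10 fragments at chr1:8688345-8689388. Gpc5, a heparan sulfate proteoglycan, had 9, 14, 12 and 9 at chr14:116233126-116233982. Aff2, a member of the family that includes subunits of the super elongation complex, held 2 regions on X, of which chrX:69635638-69636145 had 11, 8, 11 and 10. Cadps2 and Csmd2 also held 2 regions each, and Tmem132d, Lingo2, Ptprd and Fhit held 1. Merging joins peaks that overlap in a chain, and with 50% reciprocal overlap the most libraries sharing a region fell from 4 to 1 in Lingo2, to 2 in Fhit and Nrg3, and to 3 in Fgf13, Gabrg3, Galntl6 and Nell1. Without control 1 or without knockout 2, the most in Lingo2 was 2. Dmd held a single region in all 4 libraries, chrX:83894525-83895171, 1080 kb from the start of this plus-strand gene, with 12, 12, 8 and 8 fragments. Both controls lay above both knockouts there, at counts of 8 to 12 and with read totals unknown.

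**Figure D5:**
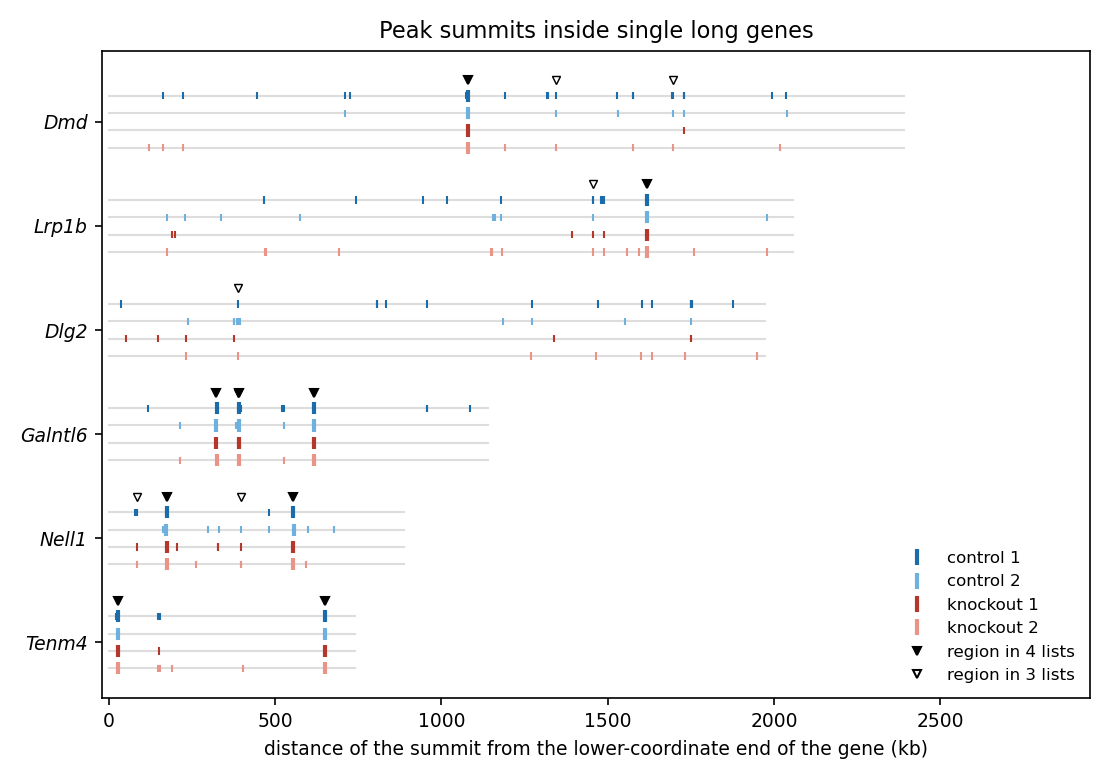
Peak summits along 6 long genes, as distance in kb from the lower-coordinate end of the gene (x axis), with a line for each library (control 1 at the top, knockout 2 at the bottom) in each gene (y axis). Filled triangles mark regions called in 4 lists and open triangles regions called in 3; Galntl6 has 3 filled triangles, Nell1 and Tenm4 have 2 each, and Dlg2 has none.

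The 83 regions called in 3 libraries brought the number of long genes with a region in at least 3 to 94. Ranked by the lowest within-list percentile of −log10 q, the first lay in Immp2l, which encodes a mitochondrial inner membrane peptidase. This region at chr12:41777914-41778246 had 51, 69 and 32 fragments in control 1, knockout 1 and knockout 2 and starts within 8 bp. In Magi2 the region at chr5:20443463-20443823 had 47, 47 and 36 fragments in control 1, control 2 and knockout 2. In Csmd1 the region at chr8:16523140-16523595 had 35, 52 and 21 in control 1, knockout 1 and knockout 2. The library without a call was control 2 in Immp2l and Csmd1 and knockout 1 in Magi2, so the gap fell in either group. Each of these peaks held more fragments than the median member of its list. No member of knockout 1 exceeded a fold of 14.2. The 69 and 52 fragments there thus lay over local backgrounds above the median of 0.624 for its members.

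Regions called in both libraries of a group and in neither of the other were few. Both controls and neither knockout called 36 of the 1860 regions (1.94%; all regions, 2.43%), and both knockouts and neither control called 19 (1.02%; all regions, 1.09%). Both shares were near the background. Pairs across the groups ranged from 14 to 71 regions: 71 were exclusive to control 1 and knockout 2, 30 to control 1 and knockout 1, 27 to control 2 and knockout 2, and 14 to control 2 and knockout 1. The largest class joined a control with a knockout, those with the longest lists. The order of the 2 classes turned with lists of equal length (12 control and 18 knockout regions), with −log10 q of at least 5 (7 and 8) and without peaks of at most 8 fragments (6 and 11), the last chosen after seeing the data.

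The regions exclusive to the controls lay in 33 long genes (all genes, 0.85%). The strongest were in Lrba, a protein of vesicle traffic, with 11 and 11 fragments at chr3:86636832-86637379, and in Nkain3, a partner of the sodium pump, with 10 and 17 at chr4:20289208-20289566. Nkain2, of the same family, had 9 and 8 fragments, Hpse2, a heparanase homologue, had 10 and 8, Cntnap2 had 9 and 8, and Lhfpl3 had 8 and 10. Those exclusive to the knockouts lay in 18 long genes (all genes, 0.358%). They were led by Gpc6, a glypican, with 11 and 9 fragments at chr14:117862039-117862398, Cdkal1, which modifies transfer RNA, with 11 and 10, and Atrnl1 with 10 and 19. Adgrb3, an adhesion receptor, had 10 and 9, Smyd3, a lysine methyltransferase, had 9 and 7, and Syne1, a nesprin of the nuclear envelope, had 9 and 7. The named peaks held 8 to 17 fragments in the control class and 7 to 19 in the knockout class, and a single region called in 2 libraries against 2 has no test.

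Over whole genes, 10 long genes held peaks in both controls and none in a knockout (all genes, 0.859%), among them Ryr2. The reverse was seen in 3 (all genes, 0.294%): Cacna1c, Smyd3 and St6galnac3, a sialyltransferase, the last named because the count is small. These genes held 2 to 5 peaks in all: 2 each in Ryr2, Cacna1c and Smyd3, against 6.92, 7.62 and 7.07 expected from their length, and 5 in St6galnac3, against 6.58.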

How the data were processed

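A peak list for every ChIP library, replicates kept apart, was deposited by the authors, per the labels. The submitters' processing notes name FastQC, MultiQC, Bowtie2, MACS2, DiffBind and the build mm10, with versions and settings not given in the sources used here. Each deposited fold is a ratio, of summit fragments plus 1 to local background plus 1. Its deposited −log10 p and −log10 q are set against the same background, and the smallest −log10 p was 5.00. Another deposited value is the distance from peak start to summit. Summit fragments and background were recovered by solving fold and p together (tolerance 0.01), which succeeded for 99.6% of peaks and all members. Lists depend on depth, which is unknown.

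Gene spans came from RefSeq (GRCm38.p6), and 111 spans with scaffold coordinates were dropped. The ratio of long to shorter genes and its interval were checked on simulated lists. Their peaks were placed independently, so they lacked the recurrence between the real lists. Relocation was computed on these lists without such a check. Libraries were compared by exact permutation tests, 2 against 2 or by sign flips over 4. Members overlapping a shorter gene numbered 11, and 22 lay in overlapping long genes. Members and gene lists were chosen with earlier results of these data known. Named genes are those with a region in all 4 libraries (the 20 highest by the lowest within-list percentile of −log10 q), in 3 (up to 15), exclusive to a group (up to 6), the 10 with most peaks, the 10 with highest and 5 with lowest relative density, the 5 longest and 5 cardiomyocyte genes. Some genes that this rule names are not reported here. Alternatives varied the length threshold, significance, width, chromosomes, list length, margin, nested genes, high folds, overlap, relocation and libraries used. Software was pandas 2.3.3, SciPy 1.17.1, NumPy 2.4.6 and matplotlib 3.10.9 under Python 3.11.15.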

Additional observations from a re-analysis of the deposited data

How the results depend on the processing

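The mean log2 ratio of long to shorter genes stayed above 0 (0.147 to 0.331) under every alternative that kept all libraries. That against relocation stayed below 0 under the same alternatives (−0.250 to −0.015). The −0.015 came from moves within 50 kb, which keep it near 0 by construction. Leaving out each library gave 0.279 to 0.330 and −0.197 to −0.161, in that order. The recurrence difference from shorter genes ranged from 2.33 to 6.96 points (exact permutation p 0.13 to 0.5), and from 4.67 to 8.52 with a library left out. The log2 density difference of knockout from control ranged from −0.658 to −0.00940, and from −1.16 to −0.122 with a library left out; the difference in recurrence share ranged from 5.97 to 21.9 points with a library left out.

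The knockout minus control differences near 0 changed sign. For relocation (−0.00663) they were 0.00273 within 50 kb, 0.000364 with lists of equal length, 0.0844 without peaks of at most 8 fragments, and −0.0617 to 0.0484 with a library left out. For shorter genes (−0.0540) they were 0.00342, 0.0795 and −0.121 to 0.0134. The causes were not tested.

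Counts of regions followed the settings. With thresholds of 250 kb and 1 Mb, −log10 q of at least 5, equal lists and without peaks of at most 8 fragments, regions in at least 2 libraries (327) were 563, 131, 108, 193 and 106, and control-only regions (36) were 68, 16, 7, 12 and 6, with 21 for peaks of 250 bp or wider. Knockout-only regions (19) were 31, 8 and 8 at the thresholds and −log10 q of at least 5, 10 with 50% reciprocal overlap and 11 without peaks of at most 8 fragments. Regions in every library (47) were 14 at 1 Mb, 11 at −log10 q of at least 5, 24 with reciprocal overlap and 18 without peaks of at most 8 fragments. With a library left out, these 4 counts were 187 to 263, 51 to 65, 30 to 48 and 56 to 74, by construction of fewer lists.

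With the replicate number as a block, the differences kept their values (log2 density −0.639, exact permutation p 1; recurrence 14.1 points, p 0.5; relocation −0.00663, p 1). The number is only a name in the labels, and 2 pairs cannot show whether it pairs the libraries.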
